A study of Mus musculus with 5 samples.

Results

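The BCL2 family genes described here were the 10 genes Bcl2, Bcl2l1, Mcl1, Bax, Bak1, Bcl2l11, Bbc3, Pmaip1, Bid and Bmf, picked by name out of 31053 features that were counted in every library. They were read across the granulosa cell stages, among them cells with markers of remodeling follicles, across the mesenchymal subtypes and across ages. Ovarian cells came from untreated C57BL6/J mice of 2, 3, 4, 5 and 6 wk, with a single 10x 3' library per age. The study followed the first wave of follicles, many of which undergo atresia over these ages. No library carried an added agent or allele, and the number of mice and ovaries pooled into a library was not given in the sources used here. Ovaries were dissociated with 0.25% trypsin at 37°C and living cells were sorted with a dead-cell dye. Cells that had already lost membrane integrity were therefore selected against, in every group.

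The libraries held between 7779 and 11077 cells, 48163 in all, with medians of 9056 to 12424 unique molecular identifiers (UMIs) per cell, and between 56944 and 67981 UMIs per library fell on the 10 members. In all, 273 cell barcodes occurred in more than 1 library, at most 35 between any 2, which is 0.567% of the cells. Between 162 and 555 cells per library were called doublets, and they were not removed one by one. In all, 7488 cells fell in clusters without a class name, most of them for low UMIs, and entered none of the groups compared here. Their median share of mitochondrial UMIs was 15 to 23.4% at 2 to 4 wk and 5.74 to 6.2% at 5 and 6 wk. Among these cells was a cluster of 1963 with a median of 1121 UMIs. Its top genes included Inhbb, Inhba and Hsd17b1, which were also among the top genes of a named granulosa cluster. Levels are CPM, the UMIs of a gene per 1000000 UMIs of a group of cells in a library, with exact Poisson 95% intervals. With 1 library per age there is no replicate of an age, and a difference between ages compares those libraries. Groups of cells were compared within each of the 5 libraries, with no test run over them, and intervals cover counting error only. A gene was called in a comparison when its CPM ratio was at least 1.5, or at most its inverse, in the same direction in every library in which both groups held at least 50 cells, and genes needed 200 UMIs over both groups.

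Proteins of the BCL2 family decide whether the outer mitochondrial membrane is opened, which releases cytochrome c and starts the caspases. Pro-survival members (BCL2, BCL-xL from Bcl2l1, and MCL1) hold back the effectors BAX and BAK, which form the pores. BH3-only members (BIM from Bcl2l11, PUMA from Bbc3, NOXA from Pmaip1, BID and BMF) are induced or activated by stress and bind the other classes. Follicle atresia proceeds largely through apoptosis of granulosa cells, and FOXO factors, which are held inactive by PI3K and AKT signalling, and p53 are known regulators of BH3-only genes. Several members are controlled at the level of the protein, so that RNA levels describe only a part of their activity.

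Because FOXO control is known for both Bcl2l11 and Bbc3, their upstream sequences are shown. That of Bmf is added, a BH3-only gene whose level among the granulosa groups was highest in remodeling cells of 4 to 6 wk. All come from RefSeq (GRCm38.p6) and run from 250 bases before to 50 bases after an annotated start, on the strand of the gene, with a FOXO core heptamer (TGTTTAC, or GTAAACA on the other strand) in capitals. Bbc3 is read from the + strand at chr7:16310011-16310310, Bcl2l11 from the + strand at chr2:128125788-128126087, and Bmf from the - strand at chr2:118549637-118549936.
Bbc3: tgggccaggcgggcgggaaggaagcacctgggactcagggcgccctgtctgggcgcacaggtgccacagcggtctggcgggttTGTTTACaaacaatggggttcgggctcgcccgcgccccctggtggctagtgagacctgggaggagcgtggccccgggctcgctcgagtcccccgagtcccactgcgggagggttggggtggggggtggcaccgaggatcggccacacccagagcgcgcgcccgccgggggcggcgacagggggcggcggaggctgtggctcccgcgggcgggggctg
Bcl2l11: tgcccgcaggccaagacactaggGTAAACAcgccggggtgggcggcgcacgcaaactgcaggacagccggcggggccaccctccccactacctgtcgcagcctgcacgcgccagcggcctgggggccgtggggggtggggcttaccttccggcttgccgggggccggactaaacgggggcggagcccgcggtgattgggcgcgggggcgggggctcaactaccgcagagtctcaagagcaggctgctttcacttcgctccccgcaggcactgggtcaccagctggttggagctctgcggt
Bmf: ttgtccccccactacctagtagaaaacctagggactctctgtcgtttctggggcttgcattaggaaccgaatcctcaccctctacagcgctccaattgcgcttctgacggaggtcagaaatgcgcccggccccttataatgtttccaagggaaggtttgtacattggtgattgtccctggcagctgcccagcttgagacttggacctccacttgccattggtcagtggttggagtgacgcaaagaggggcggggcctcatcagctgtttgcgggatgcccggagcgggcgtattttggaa
The heptamer began 167 bases before this Bbc3 start and 227 bases before this Bcl2l11 start, and the Bmf window held none. These genes have further windows, not shown, and none of those held it. For Bbc3 and Bcl2l11 the window shown is the one with the heptamer. In all, 16 windows matched 9 of the members, and 2 of the 16 held it, against 3.65% of 32851 promoters. The AP-1 heptamer TGACTCA, read on both strands (TGAGTCA), was in 0 of the 16 and in 5.2% of all promoters. A match is a stretch of letters and not a bound site, and a window without a match says nothing about the factor.

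Granulosa cells, 18226 in all, carried Foxl2, Amh, Inha and other granulosa markers and were clustered again without the members and the gene lists used here. The clusters were named primordial-like (647 cells), primary-like (3224), antral-like (2828), remodeling-like (3373) and mitotic-like (2667) from fixed markers. A cluster of 1709 cells had 4 secondary markers detected, but Mcm4, Ung and Mcm3 led it, its top 10 genes are known for S phase, and it is called the Mcm4 group. In all, 3778 cells stayed unnamed, among them a cluster of 2162 cells led by Vpreb3. Only the primordial group at 6 wk had fewer than 50 cells (47) and was left out of ranges and ratios. The make-up of some groups shifted with age. Of the 152 remodeling cells at 2 wk, 134 were in a cluster led by Angpt2, whereas at 4 wk 712 of 1383 were in a cluster led by Cald1 and 447 in one led by S100a6. H19, among the top 10 genes of the Angpt2 cluster, was on the primary marker list. Of the 181 antral cells at 2 wk, 108 were in a cluster led by Inhba and Cyp19a1, against 163 of 480 at 5 wk. Of the 520 mitotic cells at 5 wk, 171 were in a cluster with a median of 2297.5 UMIs, against 3 of 306 at 2 wk.

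Bcl2, the founding pro-survival gene, differed widely between stages and ages. In the primary group it measured 95.7 CPM at 2 wk, 108 at 3 wk, 58.4 at 4 wk, 61.4 at 5 wk and 83.8 at 6 wk. In the antral group it measured 45.8, 11.2, 9.1, 10.1 and 14.3 CPM at the same ages. Every primary library was above every antral library, and the antral library of 2 wk stood apart from the other 4. Primordial cells, the flattened cells of the resting follicle, had 51.8 to 84.9 CPM of Bcl2 at 2 to 5 wk, against 58.4 to 108 CPM in the primary group, and the 2 wk library lay below that range. The Mcm4 group fell between the primary and antral groups at every age, with 76.9, 61, 25, 27.7 and 32.8 CPM from 2 to 6 wk. Mitotic cells had 48.7, 23.3, 11.2, 8.67 and 11.8 CPM, close to the antral group at each age but 3 wk, where they were higher. In the remodeling group Bcl2 was 71.6, 53.6, 21.7, 15.9 and 16.8 CPM. By the median over libraries the order was primary (83.8), primordial (69.8), Mcm4 (32.8), remodeling (21.7), mitotic (11.8) and antral (11.2), and each group overlapped its neighbour in range.

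Bcl2l1, which encodes the pro-survival protein BCL-xL, varied less. Its level was 29.7 to 37.6 CPM in the primary group over the 5 libraries. In the antral group it was 43.9 CPM at 2 wk, 27.2 at 3 wk and then 15.1, 17.5 and 19 CPM at 4, 5 and 6 wk. The highest and the lowest of these antral values spanned the whole range of the other stages apart from the remodeling value of 13.9 CPM at 4 wk.

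Mcl1, which encodes a short-lived pro-survival protein, was highest in the primordial group at 2 to 5 wk. Primordial cells measured 375, 514, 409 and 471 CPM at 2, 3, 4 and 5 wk, and the highest value in any other named stage was 316 CPM, in the remodeling group at 3 wk. The 47 primordial cells of 6 wk departed from this, at 225 CPM (187 to 268), above the other groups of their age but below primary cells of 3 and 4 wk (244 and 252 CPM). The antral group had 135 to 193 CPM and the mitotic group 131 to 178 CPM, which overlap. Immediate-early and heat-shock genes, 13 genes that dissociation is known to induce, summed to 12000 to 16400 CPM in the primordial group at 2 to 5 wk and to 6050 to 7900 CPM in the antral group. Their part in the Mcl1 difference was not tested.

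The effectors, which form the pores, varied little across stages. Bax measured 105 to 115 CPM in the primary group and 120, 184, 143, 157 and 147 CPM in the antral group from 2 to 6 wk, so the antral libraries lay above the primary ones. In the remodeling group Bax was 94.2, 126, 131, 145 and 160 CPM. Bak1 was between 17.3 and 31.9 CPM in every group but the primordial one, where 10 UMIs at 4 wk and 4 UMIs at 5 wk gave 16.6 and 7.72 CPM. All stages overlapped their neighbours in the order for both effectors.

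**Figure D1:**
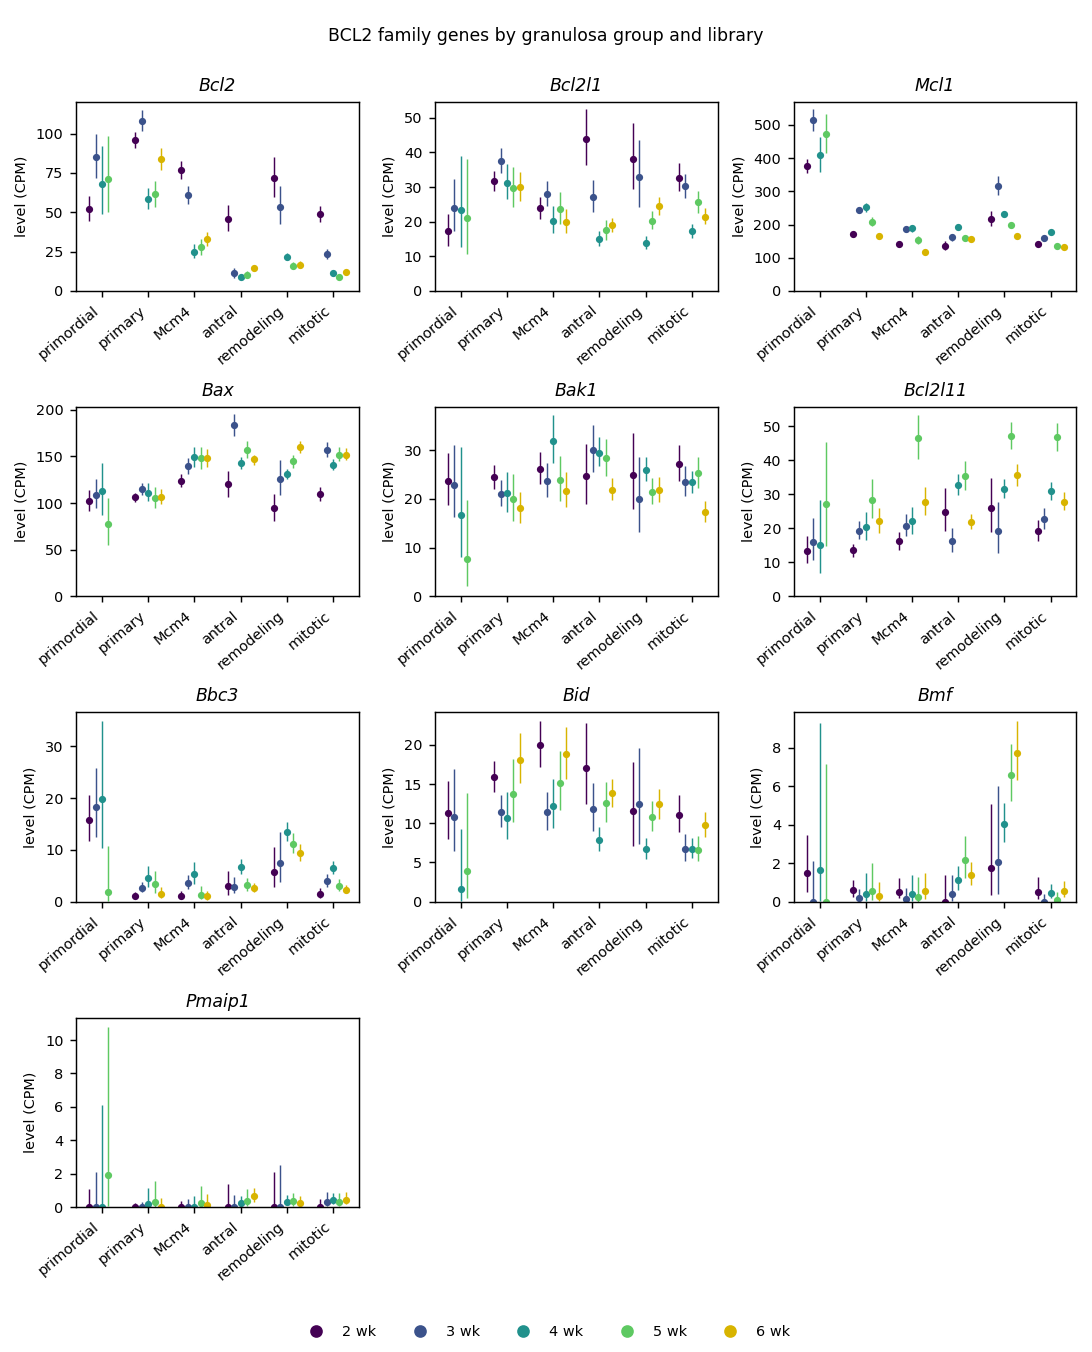
Levels (CPM) of the 10 members in the 6 granulosa groups. Points are libraries coloured by age, bars are exact Poisson 95% intervals, groups under 50 cells are not drawn, and each panel has its own axis from 0. By median over libraries Bcl2 is highest in primary and primordial cells, although primordial cells of 2 wk are below the Mcm4 and remodeling groups of that age. Mcl1 is highest in primordial cells and Bmf in remodeling cells of 4 to 6 wk.

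Among the BH3-only genes, Bcl2l11 (BIM) was detected in every stage and moved with age. The Mcm4 group measured 16.2, 20.8, 22, 46.5 and 27.8 CPM from 2 to 6 wk, and the antral group 24.9, 16.2, 32.8, 35.3 and 21.8 CPM. The remodeling group measured 26, 19.2, 31.5, 47.1 and 35.5 CPM. At 5 wk it was close to the Mcm4 and mitotic (46.7 CPM) groups, while primary cells had 28.3 CPM. At 6 wk it was above every other named stage. The 5 wk library was the highest in all 6 groups.

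Bbc3 (PUMA) was highest by median in 2 groups. Primordial cells measured 15.7, 18.2 and 19.9 CPM at 2, 3 and 4 wk, from 53, 32 and 12 UMIs, and a single UMI at 5 wk gave 1.93 CPM. The remodeling group measured 5.78, 7.56, 13.4, 11.1 and 9.41 CPM, from 10, 11, 221, 132 and 129 UMIs. The antral group measured 2.98, 2.9, 6.64, 3.14 and 2.66 CPM, and only its 4 wk value lay within the remodeling range. The Mcm4 group was the lowest by median, at 1.37 CPM.

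Bmf, whose protein senses damage to the cytoskeleton and loss of attachment, was near the floor in growing follicles. It measured 1.73, 2.06, 4.02, 6.57 and 7.74 CPM in the remodeling group, from 3, 3, 66, 78 and 106 UMIs. In the antral group it had 0, 2, 15, 17 and 23 UMIs, or at most 2.14 CPM, and in the primary, Mcm4 and mitotic groups it never passed 0.584 CPM. In remodeling cells of 4, 5 and 6 wk it stood above every library of every other named stage. Within those ages the cluster led by Cald1 held 5.11, 10.8 and 10.5 CPM of Bmf and the cluster led by S100a6 3.04, 3.41 and 4.56 CPM.

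Bid, which links death receptors to mitochondria, was expressed in every growing stage. The Mcm4 group had 20, 11.4, 12.2, 15.1 and 18.8 CPM and the mitotic group 11, 6.77, 6.78, 6.6 and 9.73 CPM, so that each Mcm4 library lay above the mitotic library of its age. Pmaip1 (NOXA) was near absent from granulosa cells, with 69 UMIs in all. The antral group had 0 UMIs at 2 and 3 wk and 3, 3 and 11 UMIs at 4, 5 and 6 wk, or at most 0.651 CPM, and the remodeling group had 0, 0, 5, 4 and 3 UMIs. A count of 0 in the antral group at 2 wk allows up to 1.12 CPM (3 UMIs of its total, a one-sided limit, where the two-sided interval ends at 1.37 CPM), so a lower level was not detectable there.

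The contrast of remodeling with antral cells sets granulosa clusters with remodeling markers against those with antral markers. The paper dates the start of atresia to about 3 wk and counted no antral follicles before that age. At 2 wk these names therefore give a marker profile and not a follicle state. Bbc3 was the member called higher, and none was called lower, of 9 tested. Its ratios were 1.94 (0.689 to 5.66) at 2 wk, 2.61 (1.08 to 6.08) at 3 wk, 2.03 (1.58 to 2.62) at 4 wk, 3.54 (2.3 to 5.67) at 5 wk and 3.54 (2.5 to 5.08) at 6 wk, and the 2 wk interval alone reached below 1. Over 11065 genes, 4.72% were called higher, 3.68% lower and 8.4% in either direction, and 1 of 9 members is too few to set apart from that background.

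Bmf gave no ratio at 2 and 3 wk, where neither group had more than 3 UMIs. At 4, 5 and 6 wk its ratios were 3.59 (2.03 to 6.77), 3.08 (1.8 to 5.54) and 5.68 (3.6 to 9.35). When only those 3 libraries were used, a choice made after its values were seen, Bmf met the rule together with Bbc3, and 8.96% of genes were then called higher.

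Bcl2 was above 1 in all 5 libraries, at 1.56, 4.79, 2.38, 1.58 and 1.18, and was not called because the 6 wk ratio (0.978 to 1.42) was small. Mcl1 was likewise above 1 in each, from 1.06 at 6 wk to 1.97 at 3 wk. Bax was 0.689 to 1.09 and Bak1 0.662 to 1.01, each above 1 in 1 of 5 libraries. Bcl2l11 was within 0.961 to 1.33 up to 5 wk and reached 1.63 (1.42 to 1.87) at 6 wk. Bcl2l1 ranged from 0.868 to 1.28 and Bid from 0.675 to 1.05. Pmaip1 had too few UMIs.

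Markers of other cell types moved with this contrast. The 6 smooth muscle markers summed to 99.9, 164, 366, 328 and 229 CPM in the remodeling group against 46.5, 26.6, 54.4, 52.5 and 38.4 CPM in the antral group, and to between 10700 and 15500 CPM in smooth muscle cells themselves. Smooth muscle cells had 3.7 to 6.88 CPM of Bmf. Surface epithelial (13.8 to 62.4 against 1.76 to 8.93 CPM), stromal (38.6 to 109 against 14.1 to 45 CPM) and rete ovarii markers (31.8 to 143 against 8.93 to 27.8 CPM) were also higher in the remodeling group of every library. From 2 to 6 wk, 4, 5, 2, 2 and 0 of the 6 surface epithelial markers were at 0 in the remodeling group. In the antral group 4, 4, 2, 3 and 0 were. Of the 7 rete ovarii markers, 3, 2, 1, 1 and 1 were at 0 in remodeling and 4, 5, 0, 3 and 2 in antral cells. Krt18 is on both the rete ovarii and the primordial granulosa lists. Theca markers were lower in each, at 31.8 to 179 against 53.4 to 332 CPM. Cyp11a1 and Mgarp, both on the theca list, were among the top genes of the antral cluster led by Inhba and Cyp19a1. The 8 granulosa markers summed to 10100 to 15200 CPM in the antral group and 2760 to 5170 CPM in the remodeling group, and none was at 0. The immediate-early and heat-shock sum was 7070 to 12800 CPM in remodeling and 6050 to 7900 CPM in antral cells. Doublets were at most 0.868% of remodeling and 1.29% of antral cells, and hematopoietic markers at most 2.44 and 3.67 CPM. The part of these shifts in the ratios was not tested.

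**Figure D2:**
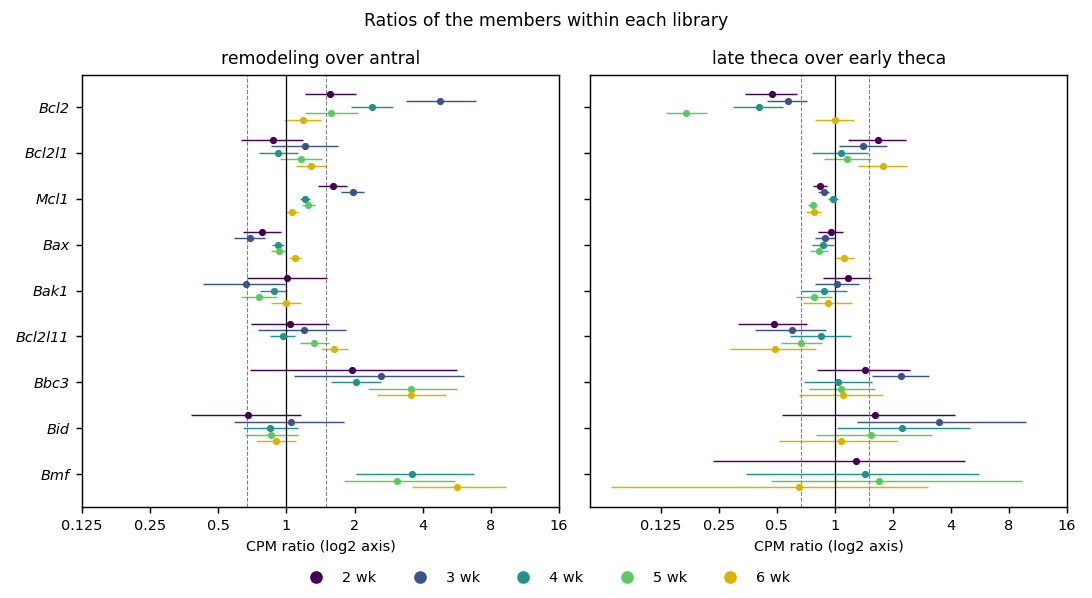
CPM ratios of 9 members within each library, on a log2 axis, for remodeling over antral granulosa cells (left) and late over early theca (right). Points are libraries, bars exact 95% intervals, the solid line is 1 and dashed lines are the fold of 1.5. Bbc3 lies beyond the right dashed line in all 5 libraries on the left, and Bcl2 lies beyond the left dashed line in 4 of 5 on the right.

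Theca cells surround the growing follicle and make androgens. The contrast of late with early theca compares clusters named by markers within a library, and no lineage was traced. The early theca-like group, led by Mest and Colec11 in its larger cluster, was set against the late theca-like group. Cyp11a1 and Cyp17a1 led the larger late cluster (858 cells), while Cpa1 and Sct led the smaller (536 cells), which had all 6 late theca markers detected but none among its top 10 genes. A smaller early cluster (526 cells) was led by the replication genes Mcm3 and Hells. None of the 7 members with enough UMIs was called in either direction, against 12.3% of 10666 genes (4.76% higher, 7.57% lower). Bcl2 came nearest. In late theca it measured 20.8, 25.6, 17.1, 7.53 and 35.4 CPM from 2 to 6 wk, and in early theca 44.1, 45.1, 42.5, 44.2 and 35.4 CPM. Its ratio was 0.472, 0.568, 0.403 and 0.17 from 2 to 5 wk and 1 (0.788 to 1.26) at 6 wk, so the 6 wk library alone departed. Within the late group, the cluster led by Cyp17a1 measured 11.2, 15.8, 10, 5.2 and 16.6 CPM of Bcl2 and the one led by Cpa1 and Sct 29.2, 33.8, 26.9, 18 and 45.6 CPM. At 5 wk 476 of 589 late cells were in the Cyp17a1 cluster and at 6 wk 40 of 128. With the 6 wk library left out and all late cells kept, a choice made after its value was seen, Bcl2 was called lower, with a median ratio of 0.437, when 8.12% of genes were called lower. With the Cpa1 cluster left out, the 40 late cells of 6 wk fell under the minimum of 50, and over the other 4 libraries Bcl2 was again called lower, at a median ratio of 0.245, with 10.2% of genes. Without the Mcm3 cluster of early theca no member was called. The late group at 5 wk also had 854 CPM of granulosa markers against 198 to 309 CPM at other ages, and a median of 9.43% mitochondrial UMIs against 3.8 to 5.2%. The part of these in the 5 wk value was not tested.

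Bcl2l11 was below 1 in every library of this contrast, at 0.485, 0.598, 0.848, 0.671 and 0.492. Bcl2l1 was above 1 in every library, from 1.07 to 1.77. Mcl1 was 0.767 to 0.978, Bax 0.826 to 1.11, Bak1 0.775 to 1.17 and Bbc3 1.04 to 2.19.

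Among the other mesenchymal subtypes, which are named here by a leading marker gene, Bcl2 was highest by median in the Hoxd9 and Col14a1 groups, at 55.5 to 76.2 and 42 to 99.8 CPM. Late theca was the lowest at 2 to 5 wk. Bmf was highest by median in the Col14a1 group, at 8.27, 7.78, 3.43 and 13.3 CPM at 2 to 5 wk, although at 4 wk the Cxcl12 group was above it at 8.31 CPM. It was lowest by median in the early theca, late theca and mitotic groups, at 0.373 to 1.45 CPM. Bcl2l11 was highest in the Hoxd9 group at 2, 3 and 4 wk, at 54.4, 39.5 and 39.2 CPM, and at 5 and 6 wk the Hoxd9 values of 30.5 and 24 CPM stood beside 38.7 and 23.5 CPM in the Cxcl12 group. Bbc3 in the mitotic mesenchymal group was 4.44, 16.1, 22.4, 6.65 and 5.4 CPM, with the 3 and 4 wk libraries high. Mcl1 was between 237 and 632 CPM in every subtype with at least 50 cells.

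Granulosa and mesenchymal cells were then compared as classes, the second taking stromal, smooth muscle and theca cells together (19225 cells). Of 10 members, Bid was called higher in granulosa cells and Mcl1 and Pmaip1 lower, against 14.1% higher and 14.4% lower among 14317 genes (28.5% in all). Bid measured 15.4, 10.1, 7.66, 11.2 and 13.6 CPM in granulosa cells and 1.96, 1.55, 1.86, 1.96 and 2.21 CPM in mesenchymal cells, and the ratio was 4.11 to 7.84. Theca cells, at 1.95 to 4.21 CPM, belonged with the mesenchymal side. Mcl1 measured 173, 220, 211, 174 and 151 CPM in granulosa and 343, 497, 442, 336 and 296 CPM in mesenchymal cells, a ratio of 0.442 to 0.52. Pmaip1 was 0.0181 to 0.394 CPM in granulosa and 0.677 to 1.6 CPM in mesenchymal cells. The immediate-early and heat-shock sum was 5110 to 9060 CPM in granulosa and 13300 to 18800 CPM in mesenchymal cells, and its part in the Mcl1 ratio was not tested.

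The 7 other members were not called. Bbc3 (0.355 to 0.784) and Bmf (0.195 to 0.707) were below 1 in every library. Bax was above 1 in every library, from 1.21 to 1.54, and Bak1 was 1.06 to 1.16 up to 5 wk and 0.852 at 6 wk. Bcl2 and Bcl2l11 changed side with age. Bcl2 was higher in granulosa cells at 2 and 3 wk, at 1.48 and 1.14, and lower at 4, 5 and 6 wk, at 0.471, 0.613 and 0.641. Bcl2l11 was the reverse, at 0.578 and 0.969 and then 1.44, 1.78 and 1.55. Bcl2l1 was below 1 at 4 wk alone, at 0.81, and was 1.87, 1.62, 1.29 and 1.17 at 2, 3, 5 and 6 wk. The make-up of the granulosa class changed between libraries. Primary cells were 948 of its 3048 cells at 2 wk and 546 of 5206 at 4 wk, and remodeling cells were 152 and 1383. The part of this in the class ratios was not tested.

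Outside these classes, hematopoietic cells (495 in all, marked by Ptprc, Laptm5 and Tyrobp) had the highest Pmaip1 and Bcl2l11 of the named classes. Pmaip1 measured 50.9, 22.7, 32.6, 48 and 122 CPM there from 2 to 6 wk, from 9 to 146 UMIs, against at most 17.1 CPM in any other named class. Bcl2l11 measured 153, 179, 103, 101 and 93.1 CPM in hematopoietic cells and 28.4 to 67.1 CPM in surface epithelium, the next by median. Mcl1 was 520 to 869 CPM in hematopoietic and 491 to 794 CPM in blood endothelial cells, which overlap. By median, granulosa cells were the lowest named class for Mcl1 and Pmaip1 apart from erythroid cells.

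**Figure D3:**
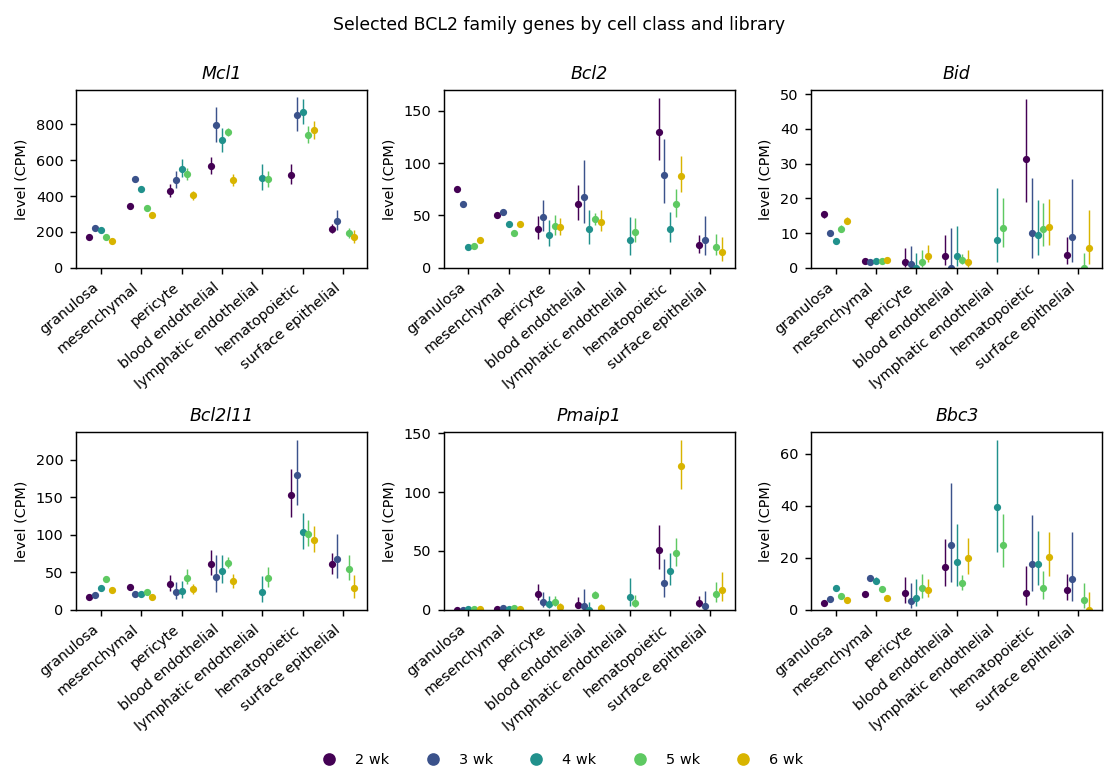
Levels (CPM) of 6 members in 7 cell classes. Points are libraries coloured by age, bars are exact Poisson 95% intervals, and classes with fewer than 50 cells in a library are not drawn for it. Bid sets granulosa cells above mesenchymal cells, and Pmaip1 and Bcl2l11 are highest in hematopoietic cells.

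Ages were compared within each group with the 2 wk library as the common base, so all age ratios share that library. Bcl2 was lower at 4 wk than at 2 wk by at least 1.5 in 5 of 6 granulosa groups, all but the primordial one. The ratios were 0.199 in antral, 0.23 in mitotic, 0.302 in remodeling, 0.325 in Mcm4 and 0.61 in primary cells, and 1.31 (0.912 to 1.86) in primordial cells. Of 8 members with enough UMIs, Bcl2 and Bid met this, and so did 8.11% of 11255 genes. Bcl2 was again lower in 5 of 6 groups at 5 wk (3.28% of genes) and in 4 of 5 at 6 wk (4.83%). In mesenchymal subtypes it was lower in 1 of 9 at 4 wk, 2 of 9 at 5 wk and 1 of 8 at 6 wk. Over whole classes the 4 wk ratio of Bcl2 was 0.261 (0.246 to 0.277) in granulosa and 0.822 (0.77 to 0.877) in mesenchymal cells. The clusters that make up the remodeling group differed between 2 and 4 wk, as given above, and their part in its Bcl2 ratio was not tested. So did the stages that make up the granulosa class, and their part in the class ratio was not tested. The files of 2, 3 and 4 wk name the same version of the counting software and those of 5 and 6 wk a later one, so the ratio of 4 to 2 wk is within a version.

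Bcl2l11 was higher at 5 wk than at 2 wk by at least 1.5 in 5 of 6 granulosa groups, with ratios of 1.81 in remodeling, 2.03 in primordial, 2.1 in primary, 2.43 in mitotic and 2.87 in Mcm4 cells, and 1.42 in antral cells. Such a ratio was seen for 2.55% of 11029 genes and for no other of the 8 members. Over all granulosa cells it measured 17.1, 20, 29.5, 41.4 and 26.7 CPM from 2 to 6 wk, and in mesenchymal cells 29.6, 20.6, 20.6, 23.2 and 17.2 CPM. Version and age cannot be told apart between 4 and 5 wk. The class values of 17.1 and 29.5 CPM at 2 and 4 wk, and 41.4 and 26.7 CPM at 5 and 6 wk, are pairs within a version. By group, however, the ratio of 4 to 2 wk was 1.12 to 1.6 and reached 1.5 in 2 of 6 granulosa groups. The stages that make up the granulosa class also differed between these ages, as given above, and their part in the class values was not tested.

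Bbc3 was higher at 4 wk than at 2 wk in 5 of 6 granulosa groups, from 2.23 in antral to 4.52 (2.18 to 10.1) in Mcm4 cells, which 3.5% of genes also were. In mesenchymal subtypes it was higher at 3 wk in 8 of 9, from 1.56 to 3.63, with Col14a1 at 1.13, against 0.74% of 11355 genes. Some of these ratios rest on few UMIs. The Cxcl12 group had 22 UMIs at 2 wk (5.21 to 12.6 CPM) and 19 at 3 wk (7.82 to 20.3 CPM), which overlap. At 6 wk Bbc3 was lower in 4 of 8 subtypes. In the remaining 10 of 16 combinations of age, direction and cell class, no member passed 1.5 in all groups or all but 1. Bid was lower at 4 wk in 5 of 6 granulosa groups, with primary cells at 0.67. Its ratio was 0.462 to 0.614 in 4 of them, and the 0.148 (0.00364 to 0.874) of primordial cells rested on 1 UMI at 4 wk. The immediate-early and heat-shock sum was 5110, 7370, 7980, 9060 and 5640 CPM in granulosa cells from 2 to 6 wk. In mesenchymal cells it was 13300, 17900, 18800, 18800 and 15300 CPM. In both classes it was lowest in the 2 wk library that serves as the base, and its part in the age ratios was not tested.

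**Figure D4:**
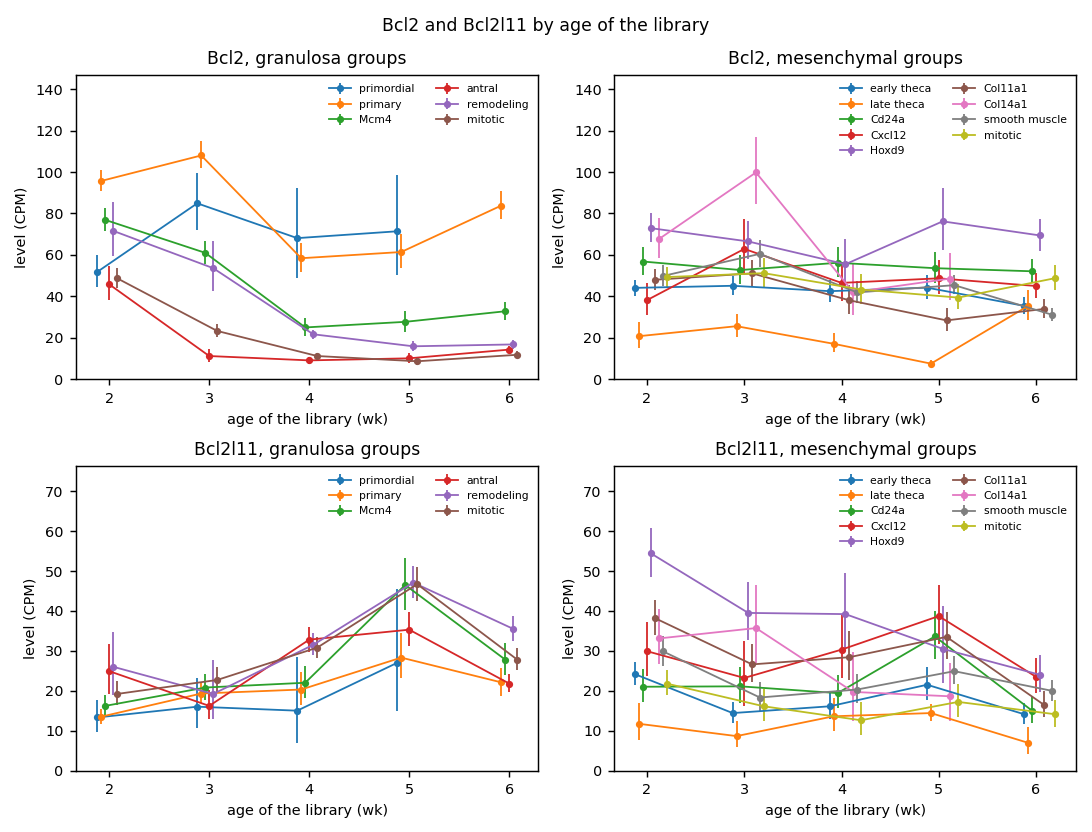
Levels (CPM) of Bcl2 (top) and Bcl2l11 (bottom) against the age of the library (wk) in granulosa groups (left) and mesenchymal subtypes (right). Lines join the same group across libraries and bars are exact Poisson 95% intervals. Bcl2 is lower at 4 than at 2 wk by at least 1.5 in 5 of the 6 granulosa groups and in 1 of the 9 mesenchymal subtypes, and Bcl2l11 is highest at 5 wk in the granulosa groups.

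The study sets antral cells of 5 wk against those of 2 wk to compare follicles of different waves. It used all of its antral clusters. The antral group here left out the unnamed cluster of 2162 cells led by Vpreb3, a gene on the antral marker list. Age and version of the counting software cannot be told apart between these libraries. Of the 6 members with 200 UMIs, Bcl2 and Bcl2l1 were lower at 5 wk, at 0.22 (0.164 to 0.293) and 0.398 (0.309 to 0.513), where 7.86% of 6249 genes were lower and 7.75% higher (15.6% in all). Bcl2 was already 11.2 CPM at 3 wk, so that the 2 wk library was the high one. Mcl1 (1.16), Bax (1.3), Bak1 (1.15) and Bcl2l11 (1.42) were not called. In the cluster led by Inhba and Cyp19a1 alone the Bcl2 ratio was 0.177 and the Bcl2l11 ratio 0.71, and no member reached the UMI minimum and the fold together. With the Vpreb3 cluster counted as antral, Bcl2l11 was called higher. The Bcl2l11 ratio thus lay on either side of 1 depending on the clusters taken as antral, and the Bcl2 ratio did not. All antral cells of 2 wk together held 67 Bcl2l11 UMIs. The ratio of 0.71 rests on a part of them and is given without an interval.

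Beyond the members, each wider list of cell death genes held at most 2 genes called between remodeling and antral cells, where 8.4% of all genes were called. Of 12 apoptosome and caspase genes, Casp6, an executioner caspase, was higher (1.65 to 3.28) and Endog, a mitochondrial nuclease, lower (0.261 to 0.475), with a list median log2 ratio of -0.31 against 0.01 over all genes. Of 6 death receptor and ligand genes measured, Tnfrsf12a, the receptor of TWEAK, was higher (2.78 to 6.85). Of 13 p53 genes, Phlda3, an inhibitor of AKT that p53 induces, was higher (2.53 to 9.93). Of 10 FOXO and PI3K genes, Irs2, an adaptor of insulin signalling that FOXO factors induce, was higher (1.85 to 2.98). None of 7 other BCL2 family genes, 5 inhibitors of apoptosis or 6 genes of the integrated stress response was called. Among the 13 immediate-early and heat-shock genes Atf3, Ier3 and Zfp36 were higher. The median log2 ratio was 0.66 for that list, 0.33 for death receptors, 0.32 for both the p53 and the FOXO lists and -0.09 for the other BCL2 family genes.

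In the theca contrast 12.3% of all genes were called. Bnip3, a mitophagy receptor of the wider family, was higher in late theca (1.77 to 4.48), as was Cited2 (2.49 to 5.83), while Tnfrsf21 and Phlda3 were among those lower. By list, 1 of 7 other BCL2 family genes and 1 of 10 FOXO and PI3K genes were higher. Of 12 apoptosome and caspase genes 2 were lower, as were 1 of 5 death receptor genes and 1 of 11 p53 genes. None of 5 inhibitors of apoptosis, 6 stress response genes or 13 immediate-early genes was called. Between the classes 28.5% of all genes were called. Granulosa cells were higher in Bnip3, Casp6 (3.5 to 4.76), Casp8, Diablo, Foxo1 (2.54 to 5.07), Trib3, Chac1 and Asns. They were lower in Fas (0.0308 to 0.128), which encodes the death receptor, and, among others, in Tnfrsf1a, Phlda3, Ddit3 and Atf5. By list, 1 of 9 other BCL2 family genes and 3 of 12 apoptosome and caspase genes were higher. Of 8 death receptor genes 2 were lower, as were 2 of 14 p53 genes. Of 10 FOXO and PI3K genes 1 was higher and 1 lower, and of 8 stress response genes 3 were higher and 2 lower. Of the immediate-early and heat-shock genes 9 of 13 were lower in granulosa cells, namely Fos, Fosb, Junb, Egr1, Atf3, Dusp1, Zfp36, Hspa1a and Hspa1b, with a list median log2 ratio of -1.52 against 0.18 over all genes. The inhibitors of apoptosis gave no call there either. Between antral cells of 5 and 2 wk 15.6% of all genes were called. Bok (2.12), Tnfrsf12a (2.77), Irs2 (2.56), Txnip (2.22), Aen (1.84), Foxo1, Asns, Htra2, Sesn1, Casp8, Ier3 and Zfp36 were higher, and Atf5 (0.464), Ddit4 (0.542), Atf3, Ier2, Hspa1a and Hspa1b lower. By list, 1 of 6 other BCL2 family, 2 of 8 apoptosome and caspase and 1 of 3 death receptor genes were higher. So were 2 of 6 p53 genes and 3 of 8 FOXO and PI3K genes. Of 5 stress response genes 1 was higher and 2 lower, and of 13 immediate-early and heat-shock genes 2 were higher and 4 lower.

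Likeness to other genes was read as Pearson's r of log2(CPM + 1) over 29 granulosa group by library values, among 13006 genes, and these values share libraries, depth and cells, so r is a description with no p. Bcl2 was most like Nrbp2 (0.94), Reep2 (0.94) and Trim7 (0.93), and among the genes nearest to Mcl1 were Nos1ap (0.95) and Btg1 (0.95). Bbc3 was nearest to Inpp5a (0.9), Mprip and Gabarapl1, Bmf to Vit (0.89), Cop1 and Msrb3, Bid to Nit2 (0.89), Carmil3 and Sbk1, and Bax to Cox6b1 (0.91), Taf10 and Fam196a. The nearest genes of Bak1 (Plcl2, Zfp668, Mvd), Bcl2l11 (Foxn2, Bex1, Itih2) and Bcl2l1 (Ppara, Gata4, B230209E15Rik) reached 0.84, 0.81 and 0.78. Pmaip1 had too few UMIs in granulosa cells for this. Some members overlap other annotated genes on the same strand (Bcl2 with Gm37053, Bax with Gm45808, Bid with Gm44260), and how the counting treated reads in the overlaps was not tested.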

How the data were processed

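Cells of 5 ovary libraries, 1 per age, were profiled with 10x Genomics 3' v3.1 chemistry. The authors ran Cell Ranger against mm10 and deposited raw UMI counts per gene and cell. Headers of the deposited matrices name version 3.1.0 for 2 to 4 wk and 6.0.1 for 5 and 6 wk, and the submitters' processing notes name Cell Ranger 3.1.0 and Seurat 4.1.0. A change of version can alter which cells and reads are counted, and age and version cannot be told apart between 4 and 5 wk.

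All deposited cells were clustered, and those that Scrublet (scanpy 1.11.5) called doublets were marked. The 7488 cells in clusters without a class name entered no comparison. Libraries were integrated and clustered with Seurat 5.3.0 in R 4.3.3 (2000 variable genes, 30 principal components, resolution 1). Granulosa and mesenchymal cells were clustered again, with the 93 listed genes, members included, left out of the clustering. Clusters were named from fixed markers, and the limits on naming (at least 3 markers with a UMI in 10% of cells, under 50% doublets) were set after clusters were seen. UMI counts were summed per group and library with numpy 2.4.6 and scipy 1.17.1, and ratios carry exact 95% intervals conditional on the sum of both counts. A ratio with a count of 0 is a bound against a floor of 3 UMIs, and with both counts at or under it no ratio was taken.

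The 10 members are named in every comparison, genes of the other lists where called, and the 3 most like genes by correlation. A few genes that these rules name are not reported here. Members and lists were chosen with earlier results of these data known. On simulated counts for the remodeling contrast (11062 genes), 81 of 107 genes changed 2-fold and 88 of 92 changed 3-fold were called, and 0 of 10863 unchanged genes. These were Poisson counts with the same fold in every library, without the spread of ratios between real libraries. The 0 is therefore not an error rate for these data. Alternatives covered doublets, cell filters, resolution, integration, averaging, scaling, the fold and the clusters taken.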

Additional observations from a re-analysis of the deposited data

How the results depend on the processing

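Each comparison was recomputed under 7 alternatives fixed at the outset, and those on single clusters or libraries were added after the data were seen. Of 72 counts of members called under an alternative, 59 stayed within 1.5 times the main count. For remodeling over antral cells the number called higher, 1 (Bbc3), became 2 (Bbc3 and Bmf) when the libraries were merged without integration, when the cluster led by Vpreb3 was counted as antral, and when the 2 and 3 wk libraries were left out, and became 0 at a fold of 2. For late over early theca 1 member (Bcl2) was called lower, in place of 0, in merged libraries, without the 6 wk library, and without the cluster led by Cpa1 and Sct, which also takes the 6 wk library under 50 cells. For granulosa over mesenchymal cells a fold of 2 left 0 members lower. For antral cells of 5 over 2 wk, Bcl2l11 was 1 member called higher, in place of 0, after the cell filter, at resolution 0.6 and with the Vpreb3 cluster. The number lower was then 1 (Bcl2l1) after the cell filter, which left Bcl2 under 200 UMIs at a ratio of 0.229, and 0 in the cluster led by Inhba and Cyp19a1 alone. Merged libraries gave no value for that comparison, because the antral group of 2 or 5 wk was absent or under 50 cells. The merged count for remodeling over antral cells therefore did not rest on all 5 libraries. Of 287 member ratios under an alternative, 276 moved by at most the spread between libraries, 11 moved further and 0 changed sides of 1 after a call. Antral cells of 5 over 2 wk have no such spread, and there the log2 width of the counting interval divided by 2 was used. Where the cause of a shift is not in the alternative's own construction, the cause was not tested.

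Depth limits Bmf and Pmaip1, which rest on few UMIs, and the 2 and 3 wk remodeling groups, which hold few cells. Ratios between groups of cells are taken within a library, and no test was run over the 5 libraries. Between ages, no paired analysis was possible because each age has 1 library.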
